A study of Rattus norvegicus with 6 samples.

Results

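Pituitary adenylate cyclase-activating polypeptide (PACAP, gene Adcyap1), vasoactive intestinal peptide (VIP, gene Vip) and their receptors PAC1 (Adcyap1r1), VPAC1 (Vipr1) and VPAC2 (Vipr2) were followed in rat dorsal root ganglia after nerve injury. These 5 genes were taken by symbol from the 18729 genes named in the deposited tables. Group averages were given for 4 of them, all but Vip, among 18696 genes, and none of the 5 was in the table of 1637 genes with a value for each library. The dorsal root ganglion holds the cell bodies of sensory neurons with their satellite glia and Schwann cells. The animals were SD rats, of an age and sex not stated in the labels. The SNI group (3 libraries) had a spared nerve injury: of the 3 end branches of the sciatic nerve, the tibial and the common peroneal were tied and cut, a piece of their distal ends was removed, and the sural branch was kept. The sham group (3 libraries) had the nerve and its branches exposed and the skin closed, with no nerve cut. Ganglia of such an animal can hold both injured neurons and neurons of the spared branch. The labels used here state neither the time after surgery, nor the side or spinal level, nor whether each library came from 1 animal.

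PACAP and VIP are closely related peptides of the secretin family, cut from larger precursors and released from dense-core vesicles. PAC1 prefers PACAP, while VPAC1 and VPAC2 bind both peptides. All 3 are class B G protein-coupled receptors that raise cyclic AMP (cAMP) through the stimulatory G protein and adenylyl cyclase, and PAC1 can also use the phospholipase C route. In sensory ganglia both peptides are known from studies of nerve transection, in which neurons that lose their peripheral axon make more of them.

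Values below are TPM, in which a gene's reads are corrected for its length and scaled so that every library has an equal total, and read counts, which are not corrected for length. For the 5 genes these are the authors' averages of each group, so they carry no SD, no n and no test of their own. The average read counts summed to 18.6 M in each group, and the depth of a single library is unknown. All 12 markers of sensory neurons on the list had averages, which alone says little, as 18696 of the 18729 genes did. Their levels show that they were expressed in both groups. Isl1, a neuronal transcription factor, was lowest, in SNI at 46.3 TPM, and Nefl, a neurofilament subunit, highest, in sham at 7588 TPM. In bulk tissue, fewer cells of a type and less RNA per cell cannot be told apart.

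Of the 2 ligand genes, Adcyap1 (NCBI Gene ID 24166) was by far the more fully measured. It averaged 60.6 TPM in sham against 273.7 TPM in SNI, a 4.52-fold higher level after injury. The average read counts were 1329 in sham and 5915 in SNI, a 4.45-fold difference. Both scales thus gave nearly the same ratio. On the log2(TPM + 1) scale, the ratio of averages was 2.16. Of the 4 members with averages, 3 stood above 0 on this scale and 1 below, where 53.1% and 45.9% of all genes with averages did. If the averages are multiplied by 3 to stand for the reads of a group, the 95% exact (Clopper-Pearson) interval of the read ratio ran from 4.30 to 4.61. Such intervals cover counting error only and leave out the spread between animals and libraries. Adcyap1 was in the authors' list of genes higher in SNI, the 1 member with averages of which this was true, against a background of 3.63% of genes with averages in that list. Only 62 of the 18696 genes had a larger log2 ratio, which is 0.332% of them. In level, Adcyap1 stood at rank 3043 among these genes in sham and at rank 612 in SNI.

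**Figure D1:**
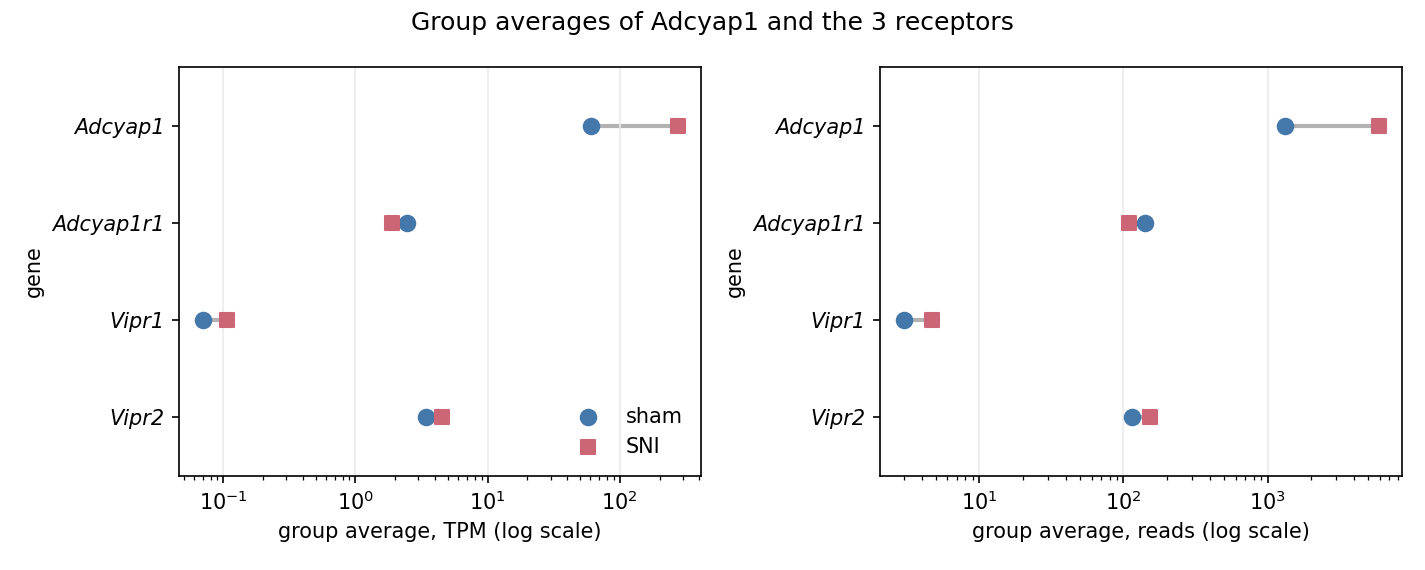
Average TPM (left) and average read count (right) of Adcyap1 and the 3 receptor genes in sham (circles) and SNI (squares), on log axes; Vip has no averages. Adcyap1 lies at 60.6 and 273.7 TPM, whereas the 3 receptors lie under 5 TPM in both groups, with Vipr1 near 0.1 TPM.

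Set beside other peptide precursors of the ganglion, Adcyap1 ranked 6 of 18 in sham and stood at rank 5 in SNI, by average TPM. Above it in SNI stood Npy (neuropeptide Y, 1452 TPM), Calca (the CGRP precursor, 1182 TPM), Gal (galanin, 533 TPM) and Tac1 (the substance P precursor, 384 TPM). In sham the precursors above it were Calca, Tac1, Sst (somatostatin), Calcb (another CGRP) and Nmb (neuromedin B), and the last 3 of these averaged 212, 253 and 103 TPM in SNI, below Adcyap1. By log2 ratio of averages Adcyap1 came at rank 5. It followed Npy (6.56), Gal (4.71), Ucn (urocortin, 3.76) and Cck (cholecystokinin, 2.26), although Ucn had an average of only 3.67 reads in sham. Of the 17 other precursors with averages, 10 were higher and 7 lower in SNI (53.1% and 45.9% of all genes with averages). The authors' higher list held 7 of these precursors and their lower list 2, Penk and Cartpt. These lists held 3.63% and 0.695% of all genes with averages.

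The 5 genes whose pair of averages was nearest to that of Adcyap1 were sought over all genes, by Euclidean distance over the 2 groups on the log2(TPM + 1) scale. They were Vgf (distance 0.22), Jun (0.43), LOC689064 (0.47), Gfra1 (0.55) and RT1-Da (0.56), and all 5 were in the authors' higher list. As they were picked for averages like those of Adcyap1, their place in that list follows largely from the choice. Vgf, a secreted granin-like protein from which peptides are cut, averaged 55.1 TPM in sham against 309.6 TPM in SNI. Jun, a subunit of the AP-1 transcription factor, averaged 60.1 and 202.5 TPM. For Gfra1, which encodes a co-receptor of GDNF, the averages were 82.0 and 215.4 TPM. No gene lay within a distance of 0.1 of Adcyap1, so few genes shared both its level and its ratio.

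Vip (NCBI Gene ID 117064) was in the authors' higher list, but neither a level nor a fold change was given for it. It was 1 of 21 genes of that list without averages, out of 699. Such gaps had a pattern in the tables. In the per-library table, 9 genes had no averages, and in all 9 every library of at least 1 group stood at 0, while this held for 0 of the 1628 genes with averages. The group-average table itself held no gene at 0 in either group. Of the 21 listed genes without averages, 1 had values per library, Aph1b, which was at 0 in all 3 sham libraries and at 21.86 TPM in 1 of 3 SNI libraries. What the level of Vip was in any library is therefore not known from these tables. The authors' lists also carried pathway names from KEGG. Adcyap1 carried Insulin secretion and Renin secretion, and Vip carried none.

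The windows around the start sites of both ligand genes and of the receptors were searched because both ligands were in the higher list and the peptides act through cAMP. The RefSeq windows (assembly GRCr8) run from 250 bases before to 50 bases after a start site and were matched for all 5 genes. The search was for TGACG, the core of the cAMP response element, on both strands, and for TGANTCA, the AP-1 site, which reads the same on both. The core was found in Vip and Vipr1, and is shown here in capitals within the 30 bases around it, 5′ to 3′ on the plus strand, as the 2 matches among the members:
Vip, chr1:44470370-44470399: gggatcaccactgTGACGtctttcgaggag
Vipr1, chr8:130187683-130187712: taacctctccgccCGTCAgacgagcccccg
In Vip the core began 97 bases before the start site on the gene's own strand. In Vipr1 it began 65 bases before the start site and read on the opposite strand. The windows of Adcyap1, Adcyap1r1 and Vipr2 held neither the core nor the AP-1 site, and no member held the AP-1 site. The whole cAMP response element was in none of the 5 windows, Vip and Vipr1 included. It occurred in 2.57% of the windows of genes with averages. The core occurred in 21.2% of all 33469 windows and in 26.9% of those of genes with averages, so a match in 2 of 5 genes is a description of these letters only. For Adcyap1, Vipr1 and Vipr2 all 250 bases before the start site lay inside the annotated span of the gene, and for Vip 248 of them did, so other starts of these genes were not searched.

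The receptor genes were expressed at low levels. Vipr2 (Gene ID 29555), which encodes VPAC2, had the highest average of the 3, at 3.39 TPM in sham against 4.55 TPM in SNI. Its average read counts were 114.7 and 152.3. The SNI level was 1.34-fold that of sham in TPM, with a counting interval of 1.15 to 1.53 on reads. Adcyap1r1 (Gene ID 24167), which encodes PAC1, went the other way, at 2.47 TPM in sham against 1.90 TPM in SNI, with 140.4 and 108.9 reads. The SNI level was 0.768-fold that of sham, with a counting interval of 0.670 to 0.900 on reads. Vipr1 (Gene ID 24875), which encodes VPAC1, was close to the limit of the data, at 0.0700 TPM in sham against 0.107 TPM in SNI. These averages rest on 3.00 and 4.67 reads, and the counting interval of the read ratio ran from 0.627 to 4.07, so no difference was detectable at this depth.

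None of the 3 receptor genes was in either of the authors' lists. On the log2(TPM + 1) scale their ratios were 0.34 for Vipr2, −0.26 for Adcyap1r1 and 0.05 for Vipr1. Over all genes with averages, 12.8% had a larger ratio than Vipr2 and 11.4% a smaller ratio than Adcyap1r1. Spread between libraries was not given for the receptors. For scale only, the 97 genes of the per-library table with a mean of 2 to 5 TPM had a median SD within groups of 0.13 on the log2(TPM + 1) scale, and in 90% of them it was at most 0.27. That table is a selection of genes, so these SDs need not hold for the receptors, and whether Vipr2 or Adcyap1r1 differed between groups was not tested. The per-length order in both groups was Vipr2, then Adcyap1r1, then Vipr1. Vipr2 stood at 1.37 times Adcyap1r1 in sham and at 2.40 times in SNI, and Adcyap1r1 at 35.3 and 17.8 times Vipr1. Of the summed receptor TPM, Vipr2 made up 57.2% in sham and 69.4% in SNI, and Adcyap1r1 41.6% and 28.9%. The sum itself was 5.93 TPM in sham against 6.56 TPM in SNI. The ligand Adcyap1 was 24.5 times as abundant as its preferred receptor Adcyap1r1 in sham, and 144 times in SNI.

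**Figure D2:**
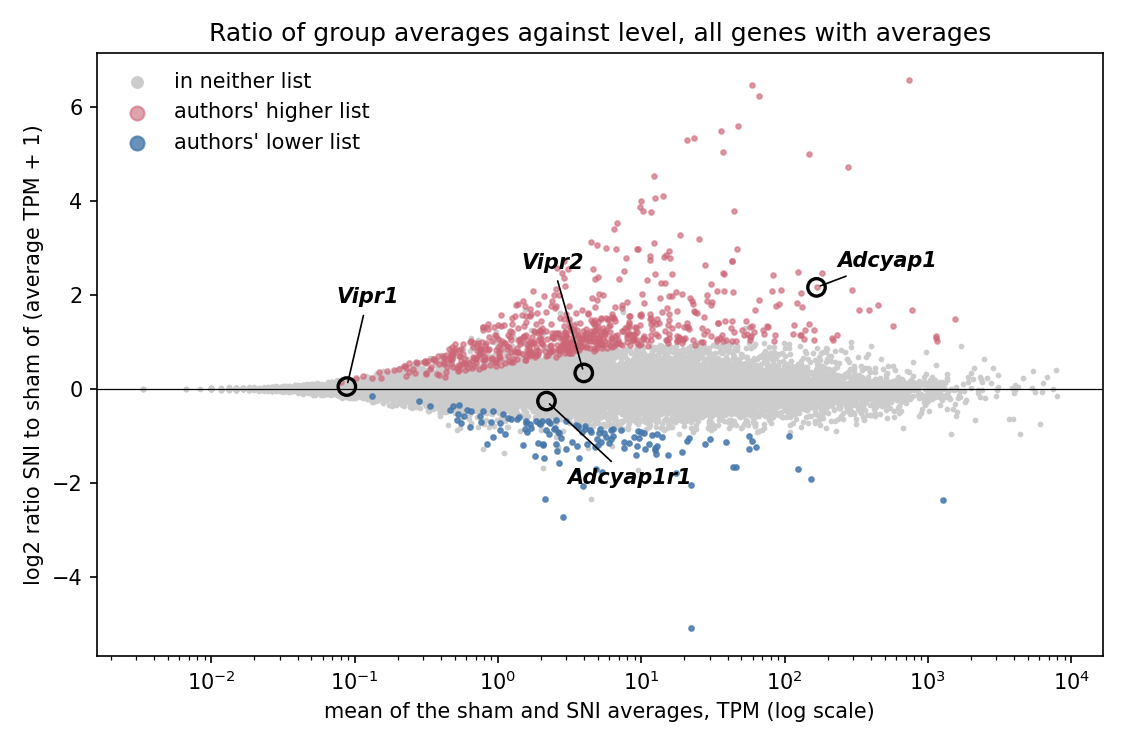
Log2 ratio of SNI to sham of the average TPM + 1 against the mean of both averages (log axis), for 18696 genes, coloured by the authors' lists, with the 4 measured members circled. Adcyap1 lies at 2.16 among the higher genes, whereas Vipr2 (0.34), Vipr1 (0.05) and Adcyap1r1 (−0.26) lie in the band of genes in neither list.

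The genes nearest to the receptors in their pair of averages were less telling, as many genes share a low level. Within a distance of 0.1 lay 36 genes for Vipr2, 45 for Adcyap1r1 and 841 for Vipr1. Among the 5 nearest to Vipr2 were Csmd2, Gbp4, Kcnj9 and Lama5, and among the 5 nearest to Adcyap1r1 were Aspdh, Zfp483, Tmem132b and LOC103694878. The 5 nearest to Vipr1 were Arl14, Pkd2l1, Plb1, Magec2 and Samd7. None of the 15 nearest genes was in either list of the authors. This too follows largely from the choice, as they were picked for averages like those of receptors in neither list.

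The relatives of the 5 genes showed little of the pattern of Adcyap1. Of the secretin-family peptides, Sct (secretin) averaged 1.76 TPM in sham against 2.24 TPM in SNI and Ghrh (growth hormone-releasing hormone) 0.687 and 0.227 TPM, with none in either list. Of 12 other class B receptors, 11 had averages, with the SNI average above that of sham in 6 and below it in 4, and 1, Ghrhr, the receptor for growth hormone-releasing hormone, was in the higher list. It averaged 0.0933 and 0.913 TPM on 1.33 and 15.3 reads. The parathyroid hormone receptor Pth1r was the 1 class B receptor with values per library. It read 22.25, 19.98 and 23.69 TPM in sham against 16.30, 18.92 and 19.34 TPM in SNI, and fell by 0.26 on the log2 scale (SE 0.08, limma adjusted p = 0.025). The groups did not overlap, yet the call was lost without SNI replicate 1 (adjusted p = 0.093), sham replicate 1 (0.060) or sham replicate 3 (0.089). Ramp2, which escorts class B receptors to the cell surface, was at 135.57, 138.34 and 146.80 TPM in sham against 123.31, 128.54 and 124.13 TPM in SNI (log2 fold change −0.16, SE 0.05, limma adjusted p = 0.017). That call too was lost without SNI replicate 1, SNI replicate 3 or sham replicate 3 (limma adjusted p = 0.067, 0.061 and 0.066).

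Where genes had values per library, SNI was compared with sham by limma over 1596 genes, of which 32.0% were called higher and 29.2% lower at a Benjamini-Hochberg adjusted p under 0.05. Over the 15 lists of genes around the PACAP and VIP system, 29 genes were tested, of which 11 rose, 11 fell and 7 did not pass. Each share, 37.9%, was not far from the background. Of all 153 listed genes found in the tables, the authors' higher list held 19 (12.4%) and their lower list 2 (1.31%). Of all genes with averages, 3.63% were in the higher list and 0.695% in the lower list. The neuropeptide precursors and the gp130 cytokine pathway supplied 11 of these 19. The median log2 ratio was 0.07 over the 153 genes and 0.02 over all genes with averages.

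Of 14 genes that make and pack peptides, 10 had a lower and 4 a higher average in SNI (45.9% and 53.1% of all genes with averages), with a median log2 ratio of −0.13 and a range from −0.62 for Chga, a granule protein, to 2.47 for Vgf. Of 5 tested, 3 fell, 1 rose and 1 did not pass, where 29.2% of all tested genes fell and 32.0% rose. Vgf read 57.20, 49.10 and 59.08 TPM in the 3 sham libraries and 319.25, 288.07 and 321.56 TPM in the 3 SNI libraries. All SNI libraries thus lay far above all sham libraries (log2 fold change 2.47, SE 0.08, limma adjusted p = 1.0e-08). Pcsk2, the convertase PC2, which cuts peptide precursors, read 78.37, 71.54 and 72.71 TPM in sham against 58.97, 61.27 and 58.97 TPM in SNI. It fell by 0.31 on the log2 scale (SE 0.05, limma adjusted p = 0.00076), with no overlap between the groups. Cadps, which primes dense-core vesicles for release, read 137.84, 129.56 and 140.39 TPM in sham against 104.72, 107.47 and 108.54 TPM in SNI (log2 fold change −0.34, SE 0.05, limma adjusted p = 0.00022). Pcsk1, the related convertase PC1/3, had no values per library and averaged 24.9 TPM in sham against 37.2 TPM in SNI. Of the peptidases, Dpp4, which can shorten both peptides, averaged 2.09 and 1.41 TPM. Mme, neprilysin, read 6.53, 6.04 and 5.95 TPM in sham against 4.85, 4.84 and 5.71 TPM in SNI and did not pass (limma adjusted p = 0.051). Ace was higher in SNI at 6.15 ± 0.330 against 4.90 ± 0.172 TPM (SD, n = 3 each, limma adjusted p = 0.015). Quantile normalization moved its log2 fold change from 0.28 to −0.0052 (limma adjusted p = 0.96), and without SNI replicate 2 the call was lost (0.067).

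Downstream of the receptors, higher and lower averages were both common, with log2 ratios from −0.51 to 1.82. Over 7 signalling lists with 80 genes, from the G proteins to the cAMP-responsive genes, the authors' higher list held 5 genes (6.25%, against 3.63% of genes with averages) and their lower list 0. Of 8 of these genes tested, 3 rose, 3 fell and 2 did not pass, where 32.0% of all tested genes rose and 29.2% fell. Without the cAMP-responsive target genes the higher list held 2 of 68 genes (2.94%). Gnas, the stimulatory G protein subunit, averaged 3047 TPM in sham against 3003 TPM in SNI. Of the 10 adenylyl cyclase genes on the list with Gnas and Gnal, none was in either list, and the log2 ratios of these 12 genes ran from −0.29 to 0.69.

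Among the proteins that read out cAMP, Rapgef4, the exchange factor EPAC2, read 54.17, 51.89 and 50.21 TPM in sham against 36.43, 37.18 and 35.52 TPM in SNI. It fell by 0.51 on the log2 scale (SE 0.05, limma adjusted p = 2.7e-05), and the groups lay well apart. Prkacb and Akap12, a catalytic subunit and an anchor of protein kinase A, did not pass (limma adjusted p = 0.71 and 0.33). Of 15 phosphodiesterases, which break cyclic nucleotides down, 8 had higher and 7 lower averages. The 2 tested went opposite ways: Pde4d fell from 18.6 ± 1.40 to 14.1 ± 0.664 TPM (limma adjusted p = 0.0016) and Pde1c rose from 21.2 ± 1.84 to 26.1 ± 0.340 TPM (SD, n = 3 each, limma adjusted p = 0.0052). On the phospholipase C side, Prkce, protein kinase C epsilon, fell from 76.0 ± 6.29 to 59.8 ± 3.72 TPM (SD, n = 3 each, limma adjusted p = 0.0028). Plcb2 was in the higher list at 0.407 and 0.923 TPM, on 14.7 and 32.7 reads.

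Among transcription factors and targets, Crem, a cAMP-responsive member of the CREB family, averaged 9.49 TPM in sham against 20.4 TPM in SNI and was in the authors' higher list, while Creb1 averaged 8.70 and 12.0 TPM and was in neither. Of 12 cAMP-responsive target genes, 10 had a higher and 2 a lower average in SNI (53.1% and 45.9% of all genes with averages). Their median log2 ratio was 0.37. The higher list held 3 of them, Fos, Junb and Bdnf, and 3.63% of all genes with averages. Fos read 4.67, 3.62 and 3.93 TPM in sham against 18.24, 17.03 and 15.49 TPM in SNI (log2 fold change 1.82, SE 0.10, limma adjusted p = 4.2e-07). Junb read 25.82, 22.07 and 25.18 TPM in sham against 51.69, 47.87 and 51.70 TPM in SNI (log2 fold change 1.02, SE 0.07, limma adjusted p = 2.0e-06). Both genes lay higher in each SNI library than in any sham library. These genes also respond to many stimuli other than cAMP, tissue handling among them. Bdnf, a neurotrophin, averaged 6.81 and 19.6 TPM. Nr4a1 and Per1, further cAMP-responsive genes, averaged 45.5 and 18.0 TPM in sham against 45.0 and 14.7 TPM in SNI and were in neither list.

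**Figure D3:**
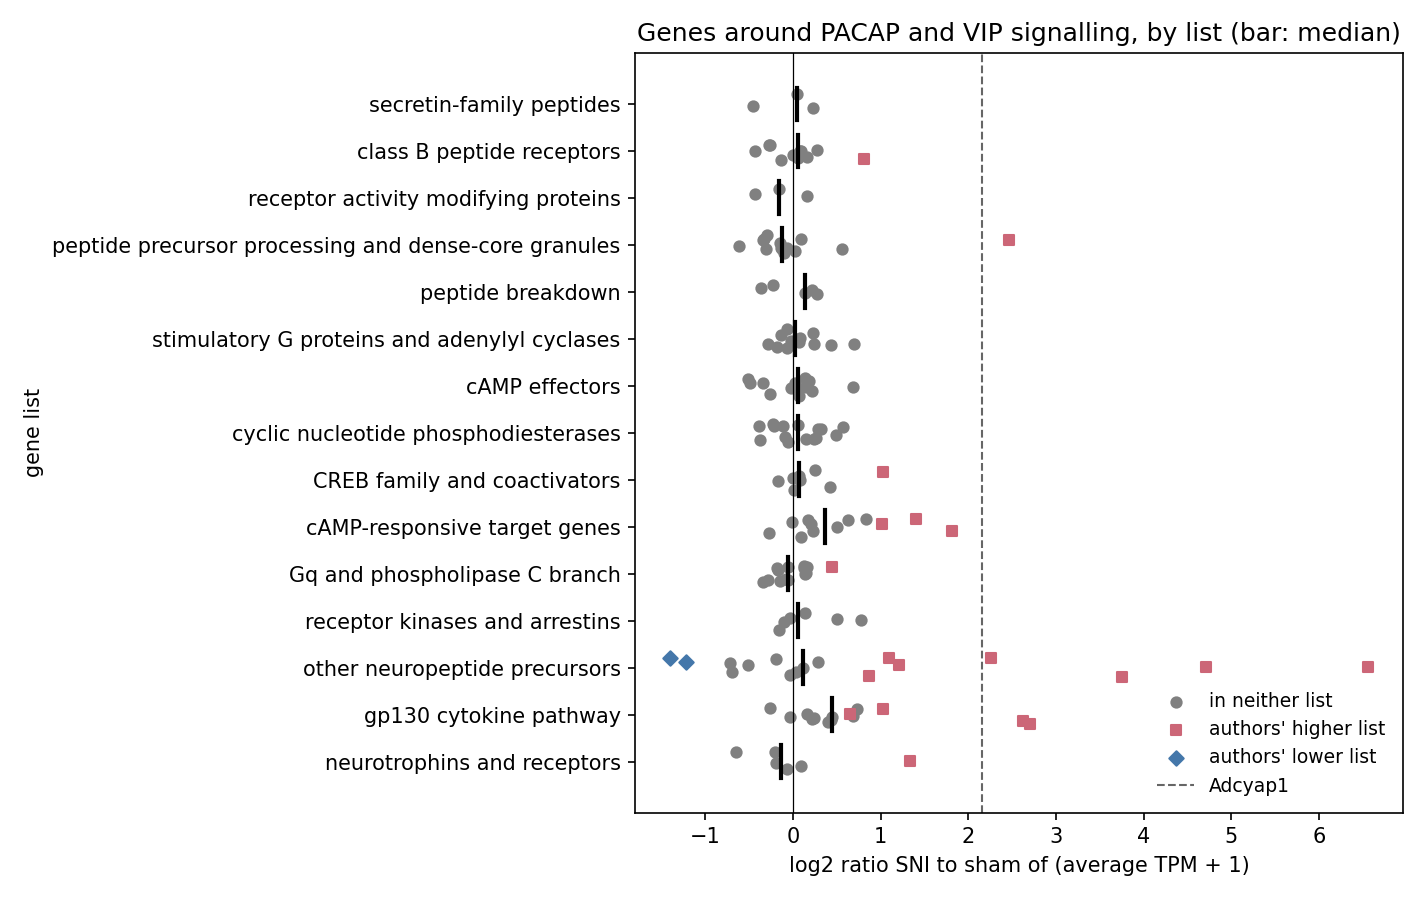
Log2 ratio of SNI to sham of the average TPM + 1 for each gene of 15 lists around PACAP and VIP signalling, coloured by the authors' lists, with black bars at the medians and a dashed line at Adcyap1 (2.16). Most genes lie near 0, and those past Adcyap1 are Vgf, Il6, Socs3 and 4 neuropeptide precursors.

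Cytokines that signal through gp130 are known as regulators of the VIP gene in neurons, and their genes were listed for that reason. Of 14 genes of the gp130 pathway, 12 had a higher average in SNI (53.1% of all genes with averages did) and 4 were in the higher list (3.63% of all). Of 4 tested, 3 rose and 1 fell, where 32.0% of all tested genes rose and 29.2% fell. Il6 averaged 0.0367 TPM in sham against 5.77 TPM in SNI. Socs3, a feedback inhibitor of this pathway, read 5.73, 7.18 and 8.31 TPM in sham against 47.44, 48.23 and 51.18 TPM in SNI, a clear separation of the groups (log2 fold change 2.64, SE 0.11, limma adjusted p = 6.1e-08). Osmr, the oncostatin M receptor, rose by 0.44 on the log2 scale and Cntf, a factor of Schwann cells, fell by 0.26 (limma adjusted p = 0.00064 and 0.010).

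**Figure D4:**
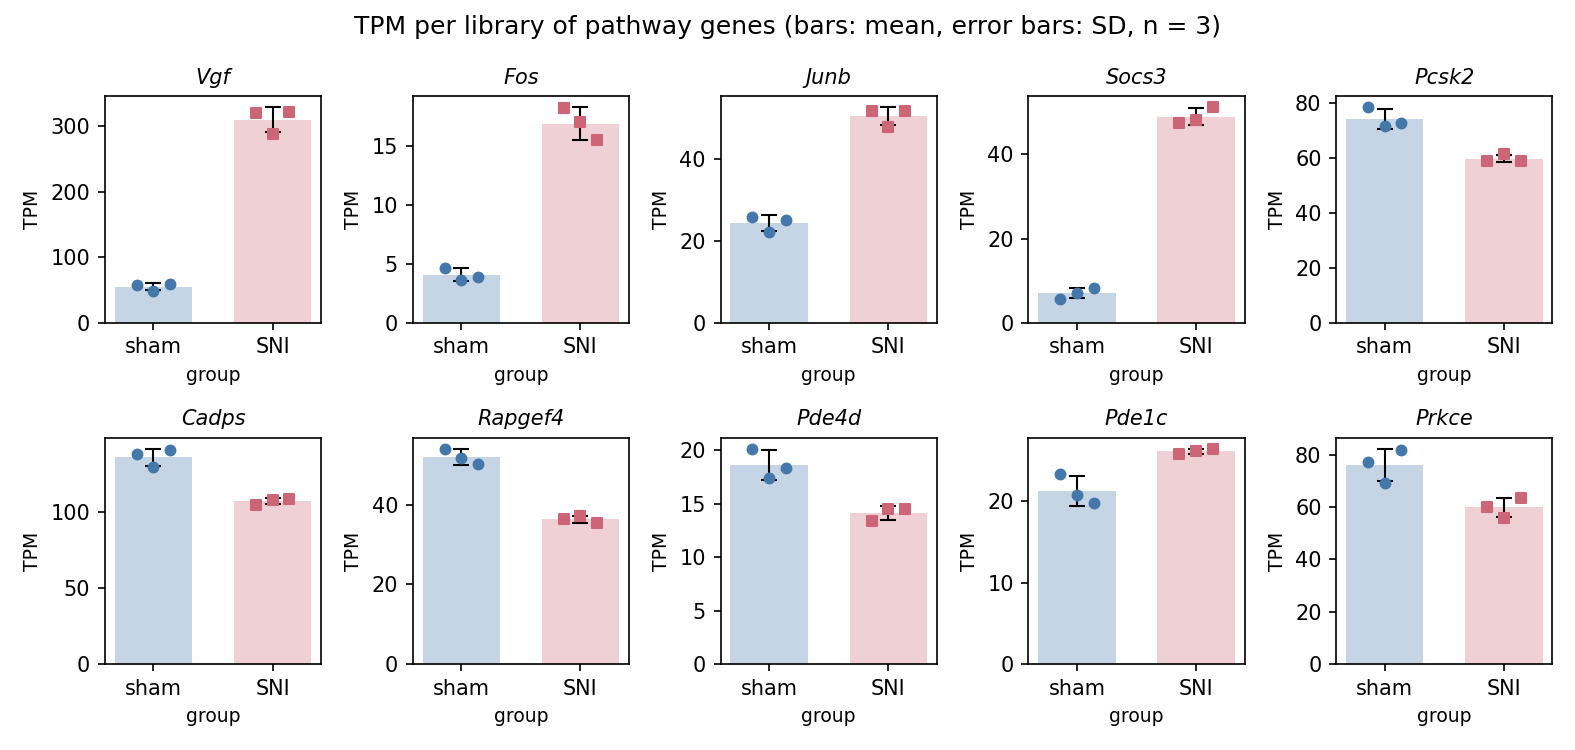
TPM in each library (points), mean (bars) and SD (error bars, n = 3) of 10 pathway genes in sham and SNI. In all 10 genes the 3 SNI libraries lie apart from the 3 sham libraries, upward for Vgf, Fos, Junb, Socs3 and Pde1c and downward for Pcsk2, Cadps, Rapgef4, Pde4d and Prkce. All 10 were picked from genes called by limma, so this separation follows largely from the choice. The 7 tested pathway genes that did not pass are not shown.

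Markers of other cells moved with the groups as well, and their part in the values of the 5 genes was not tested. All 8 macrophage markers had a higher average in SNI, with summed averages of 102.0 TPM in sham against 237.6 TPM in SNI. So had all 7 markers on the T cell list, at 33.9 and 68.2 TPM. Of these sums Cd4 alone made up 25.2 and 53.1 TPM, so they mostly follow 1 gene. Whether the Cd4 RNA came from T cells was not tested. The higher list held 6 and 2 of these markers. Of all genes with averages, 53.1% were higher in SNI and 3.63% were in that list. In single libraries, the summed TPM of the 2 macrophage markers with values, Ptprc and Cd163, was 7.83 to 9.26 in sham and 12.7 to 14.1 in SNI. The rise lay in Ptprc, at 2.45 TPM in sham against 7.13 TPM in SNI (limma adjusted p = 8.6e-06). Cd163 averaged 6.03 and 6.20 TPM and did not pass (limma adjusted p = 0.73). VIP receptors are known on such immune cells too. The summed averages of the 12 sensory neuron markers were 33575 TPM in sham against 28242 TPM in SNI, with 8 lower and 4 higher. Those of the 6 myelinating Schwann cell markers were 10569 and 5752 TPM, with 5 lower and 1 higher. The 5 erythrocyte markers, all in the higher list, summed to 566.5 TPM in sham against 1825 TPM in SNI. Autonomic neurons are another known source of VIP. Of 6 of their markers, 3 had no averages, so their level is not known, and Phox2a, Chat and Slc18a3 summed to 0.527 TPM in sham against 0.550 TPM in SNI.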

How the data were processed

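RNA of 6 libraries, 3 SNI and 3 sham, was analysed from deposited tables. Per the labels' protocols, the libraries were made for Illumina sequencing; the labels name more than 1 kit for extraction and library preparation. For the aligner, counter, build, annotation, strand setting and the test behind the authors' lists, the entry is: not given in the sources used here. TPM per library was deposited for 1637 genes, per the file headers, with group averages of TPM and of read counts for 18696 genes. The averaged read counts are treated as estimated counts, as the authors deposited them with no normalization given (65.4% and 64.8% were whole when multiplied by 3, tolerance 0.001, in sham and SNI). A scaling to 1 total in both groups is possible. Some items are not reported here. Columns named control were taken as sham. Means over the libraries matched the deposited averages in 1628 genes.

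Genes averaging 1 TPM or more (1596; 41 left out) were tested as log2(TPM + 1) with limma 3.58.1 (R 4.3.3), group as the only term, intensity trend, Benjamini-Hochberg adjustment over all genes and a threshold of 0.05; the script was checked on simulated data. Ratios of averages used the same pseudocount of 1 and understate changes of low genes. With 3 libraries against 3, the smallest two-sided exact permutation p is 0.1, so none is given. As libraries are not tied to separate animals, p-values reflect the spread among libraries alone, which may be technical. Of 231 list genes in 26 lists, 225 were matched, 1 by its RefSeq symbol (17448 of 18729 gene IDs were in that GRCr8 table). The 5 genes and the lists were chosen with earlier results of these data known. From each list the text may name up to 3 called genes of largest change (2 abundant ones if none was called) and 3 others in the authors' lists; Isl1, Nefl, Chga, Pcsk1, Dpp4, Mme, Prkacb, Akap12, Creb1, Nr4a1, Per1, the peptides ranked beside Adcyap1 the markers summed by library, Slc18a3, Grk6, Arrb1, and the genes named for their place in the genome or their KEGG name were named after their values were seen. Alternatives were another pseudocount, no filter or 5 TPM, quantile normalization, no trend, a replicate block and leaving out each library. Figures used matplotlib 3.10.9 and intervals scipy 1.17.1.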

Additional observations from a re-analysis of the deposited data

How the results depend on the processing

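The log2 ratios of averages of Adcyap1, Adcyap1r1, Vipr1 and Vipr2 kept their direction with a pseudocount of 0.1 (2.17, −0.36, 0.28 and 0.41) and on read counts (2.15, −0.36, 0.50 and 0.41), each move being within the counting interval. Vip had no value under any setting. The 35 genes named as called with the largest change in their lists, markers included, were followed through the alternatives. Of these, 27 stayed on the same side of the threshold in every alternative that gave them a value. At 5 TPM or more, Ptprc, Cd3e and Cd8a were filtered out. Named genes that did not pass in the main fit, such as Mme, were not followed in this way. After quantile normalization Ace reversed (log2 fold change −0.0052, limma adjusted p = 0.96), Cd3e, Cd8a and Apoe lost their calls, and the split of genes called higher and lower went from 510 and 466 to 402 and 608. Of the listed pathway genes, 9 to 12 were called lower and 10 to 11 higher under all settings. Replicate numbers are shared by the groups, but same-numbered libraries deviated together only weakly (r = −0.09, −0.06 and 0.19), so they do not pair the libraries. With the replicate number as a block, 498 genes were called higher and 447 lower, with 11 and 12 of the pathway genes. None of the 35 genes followed lost its call there. Leaving out 1 library gave 445 to 524 higher and 387 to 477 lower. Depth limits Vipr1, at under 5 reads on average, and the sham values of Ghrhr, Il6 and Ucn.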

Other observations

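Ghrhr, the gene next to Adcyap1r1 in the GRCr8 gene order, was in the authors' higher list (0.0933 and 0.913 TPM), while Adcyap1r1 itself averaged 2.47 and 1.90 TPM. The 3 neighbours of the ligand genes that had averages were in neither list: Yes1, beside Adcyap1, averaged 13.1 and 14.9 TPM, and Myct1 and Fbxo5, on either side of Vip, averaged 1.15 and 1.79 TPM and 1.51 and 1.50 TPM. Beside Vipr2, Zfp386 averaged 16.8 and 19.4 TPM and Dync2i1 5.37 and 5.27 TPM, and beside Vipr1, Sec22c averaged 22.4 and 19.6 TPM, all in neither list.

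The KEGG name cAMP signaling pathway was carried by 9 genes of the authors' higher list and 0 of the lower list, and by neither Adcyap1 nor Vip. The 9 were Atp2b4, Bdnf, Cnga4, Fos, Htr1f, Jun, Npy, Rac2 and Vav1. The lower list was much the shorter, with any KEGG name on 49 of its genes, against 312 in the higher list. A count of 9 against 0 is therefore not a comparison of like with like. Whether the lists differed in their share of this name was not tested, and no share over all genes is given. Insulin secretion was shared by Adcyap1 and Plcb2 alone in the higher list, and Renin secretion by these and Ptger4, a prostaglandin E2 receptor at 6.96 and 16.6 TPM. Any KEGG name was carried by 312 of the 699 higher genes, so an absent name says little. Of 6 listed receptor kinases and arrestins, which end signalling of G protein-coupled receptors, 3 had a higher and 3 a lower average in SNI. Over all genes with averages these shares were 53.1% and 45.9%. The receptor kinase Grk6 and the arrestin Arrb1 averaged 46.8 and 66.9 TPM and 61.3 and 106 TPM in sham and SNI. Grk2 and Arrb2 averaged 92.0 and 82.6 TPM and 112 and 105 TPM. None of the 6 was in either list.

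The AP-1 site TGANTCA, absent from the windows of the 5 genes, was found in 12.0% of the 606 windows of the authors' higher list in 5.69% of the windows of genes with averages and in 7.33% of all windows. The core TGACG went the other way, at 18.3% of the higher list's windows and 26.9% of those of genes with averages (21.2% of all windows). Neither difference was tested. The windows also differed in base composition. The median share of G and C bases was 53.3% in the higher list, 58.3% in genes with averages and 51.7% in all windows. Its part in the motif shares was not tested.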
